A study of Mus musculus with 18 samples.

Results

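The genes described here were 45 mouse genes of the lysosome, the acidic organelle in which cells break down proteins, sugars, lipids and engulfed material. They were found by symbol in tables of 23284 genes measured by RNA-seq in mouse tumors, and all 45 were present. By role they were 9 cysteine cathepsins, 4 other proteases, 8 membrane proteins, 11 glycosidases, 4 sulfatases, 8 proteins of lipid degradation and Tfeb, a transcription factor. No measured value was used to choose them by symbol, but they were listed with results of these data known.

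The tumors grew under the skin of the flanks of male mice (12 weeks old, Taconic) from the mouse cell lines GL261 (a glioma), LLC (Lewis lung carcinoma) and B16F10 (a melanoma). All 3 lines were implanted in C57BL/6 mice, called B6 here and given as C57BL/BNTac in the strain field of the labels, and GL261 was also implanted in ICR scid mice, which lack functional B and T cells and keep macrophages and natural killer cells. Mice were left untreated or received intraperitoneal cyclophosphamide (CPA), a prodrug that the liver converts to a DNA-alkylating agent, at 140 mg/kg every 6 days (CPA/6d). GL261(scid) tumors also had a group treated at 140 mg/kg every 9 days (CPA/9d). Treated GL261 tumors had 2 injections and treated LLC and B16F10 tumors had 3, and tumors were taken 6 days after the final injection. Each of the 9 groups was measured as 2 pools of tumor RNA, with 9 and 10 tumors in the GL261(B6) pools, 5 in each LLC pool and each untreated B16F10 pool, 4 and 3 in the treated B16F10 pools, and 6 (untreated), 9 (CPA/6d) and 12 (CPA/9d) in each GL261(scid) pool. Each tumor model is a single transplanted line, and in bulk tumor RNA a change in the number of cells of a type and a change in RNA per cell cannot be told apart.

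Lysosomal enzymes are made in the endoplasmic reticulum, tagged with mannose 6-phosphate and carried to lysosomes, where a proton pump keeps the pH low. Macrophages, osteoclasts and dendritic cells carry large amounts of them, used to digest engulfed cells, bone matrix and antigens. Many lysosomal genes hold the E-box CACGTG near their start, which TFEB and its relatives TFE3, MITF and TFEC bind. The paper reports that LLC and B16F10 cells are sensitive to activated CPA in culture. Under CPA/6d, growth of these tumors was delayed slightly (LLC) or moderately (B16F10), and the paper classed both as immune unresponsive. It compared their gene responses with those of GL261 tumors, which it classed as responsive. GL261 tumors were also compared between hosts with and without adaptive immunity.

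Levels below are normalized reads, that is, reads per gene scaled to a library of 10000000 reads, and are given for the pool with more reads and then for the pool with fewer reads of a group. Log2 fold changes are given ± their standard error (n = 2 pools per group). A gene was called changed when its fold change was over 2 and its p was under 0.001 in limma's moderated test on log2(normalized reads + 1). Adjusted p is the Benjamini-Hochberg value over all genes tested in that comparison. The 18 libraries held between 6169217 and 15979644 reads counted over genes. The 2 pools of each group differed by more than sampling noise (chi-square per gene between 2.28 and 11.2), and p-values measure the spread between pools, not between animals. Libraries from B6 and scid hosts were made with different kits, so levels are compared within a host only. The labelled tumor types matched their markers in part. Melanocyte markers summed to 229728 and 249199 normalized reads in untreated B16F10 pools, against 282 and 413 in LLC. Glial markers summed to 26074 and 25621 in untreated GL261(B6) pools, against 4563 and 4693 in LLC, and epithelial markers summed to 5352 and 4931 in untreated LLC pools, where the lung marker Sftpc was at 0 reads, and to 1442 and 1948 in GL261(B6). The epithelial sums were 15066 and 14065 in untreated GL261(scid) pools, whose libraries were made with the other kit.

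In GL261(B6) tumors, CPA/6d raised 30 of the 45 genes and lowered 0, where 17.8% of all genes tested were called higher and 6.49% lower. All 9 cysteine cathepsins and all 4 other proteases rose, as did 5 of 8 membrane proteins, 6 of 11 glycosidases, 1 of 4 sulfatases and 5 of 8 lipid-degradation genes. The median log2 fold change was 1.36 over the 45 genes and -0.02 over all genes tested, and it ran by role from 2.41 in cysteine cathepsins and 2.08 in the other proteases to 1.59 in lipid degradation, 1.18 in membrane proteins, 1.11 in glycosidases and 0.32 in sulfatases. Beside this, 14 of 16 macrophage markers were higher after CPA/6d in the same tumors, with a summed level of 8829.6 and 9864 normalized reads in untreated pools and 58875 and 67945 in treated pools, and 0 of them were at 0 reads in either group. The part of macrophages in the lysosomal response was not tested.

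The cysteine cathepsins had the largest changes. Ctss, a cathepsin of antigen-presenting cells that cleaves the invariant chain of MHC class II, was at 2802 and 2854 normalized reads in untreated GL261(B6) pools and 30876 and 34782 after CPA/6d. The groups lay far apart, and the difference was 11.6-fold (log2 3.53 ± 0.07, adjusted p = 3.0e-12). Ctsk, the collagen-degrading cathepsin of osteoclasts and the neighbour of Ctss on chromosome 3 (mm9 chr3:95303208-95313284, with Ctss at chr3:95330708-95360325), went from 189.8 and 238 to 1745 and 1956 (log2 3.11 ± 0.11, adjusted p = 8.5e-11). Ctsb, an abundant endo- and exopeptidase, went from 4428 and 5043 to 30384 and 33688 (log2 2.76 ± 0.08). Neither pair of groups overlapped. Ctsl, an endopeptidase that also trims the invariant chain, went from 1761 and 1892 to 9462 and 9989 (log2 2.41 ± 0.06). Ctsc, the dipeptidyl peptidase that activates granzymes and neutrophil serine proteases, went from 1000.3 and 1046 to 5900.4 and 6220.1 (log2 2.56 ± 0.06). The remaining cathepsins of this class, Ctsh (an aminopeptidase), Ctsz (a carboxypeptidase), Ctsf and Ctso, rose by between 1.98 (Ctso) and 2.32 (Ctsh) on the log2 scale.

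Among the other proteases, Ctsd, the main aspartic protease of the lysosome, was at 3290.4 and 4064 normalized reads in untreated pools and 17870.5 and 20602 in treated pools (log2 2.39 ± 0.09, adjusted p = 2.8e-10). Lgmn, the asparaginyl endopeptidase that processes several cathepsins to their mature form, went from 1420.1 and 1602 to 7429.9 and 7527 (log2 2.31 ± 0.07). In both genes the treated pools were well above the untreated ones. Ctsa, a carboxypeptidase that also protects β-galactosidase and neuraminidase 1 from breakdown, rose by 1.85, and Tpp1, a tripeptidyl peptidase, by 1.20 on the log2 scale.

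**Figure D1:**
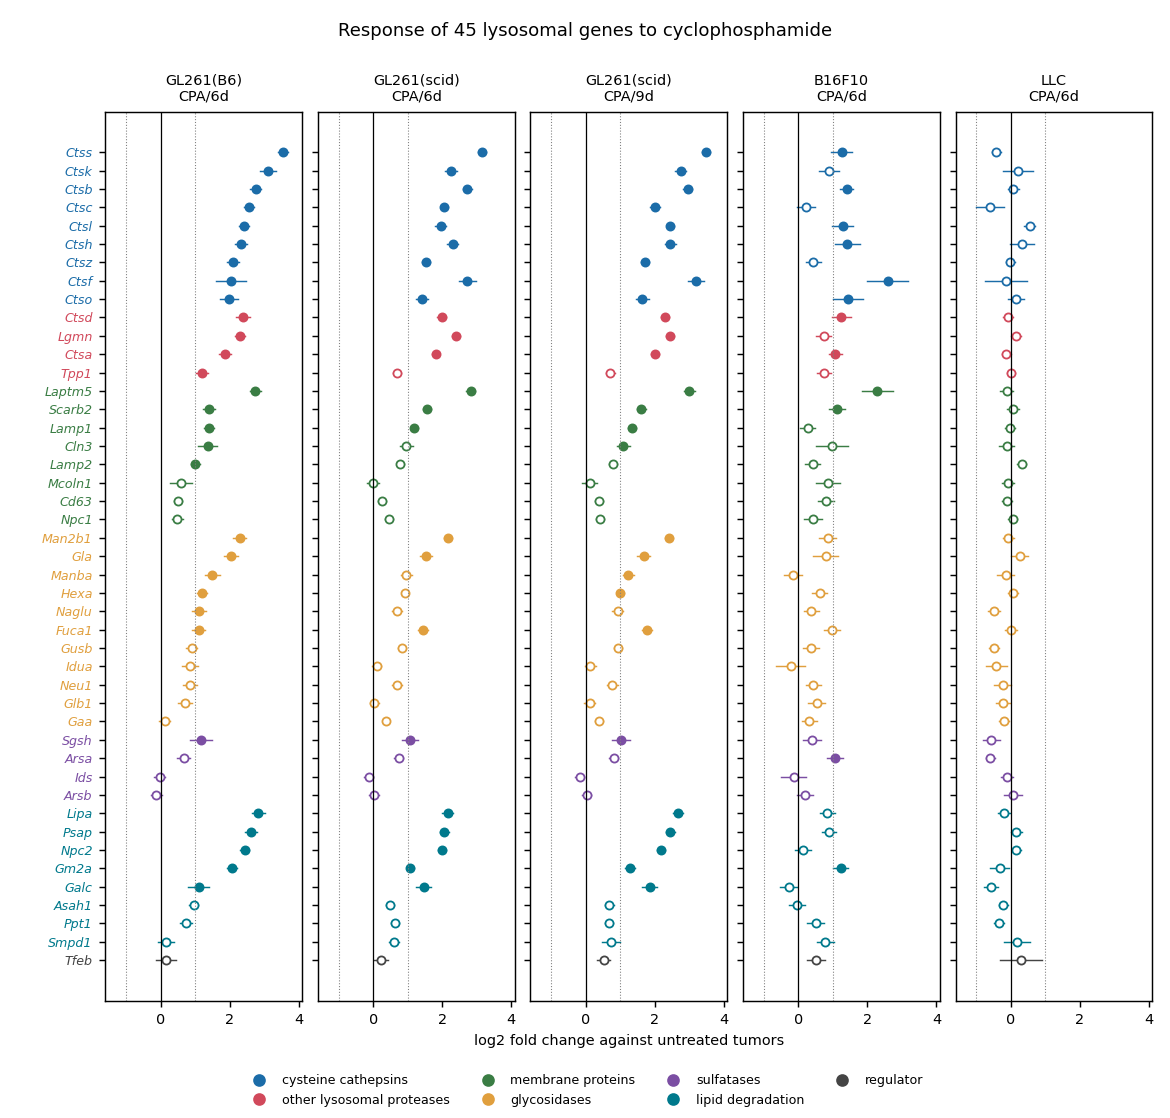
Log2 fold change of each of the 45 lysosomal genes after CPA against untreated tumors (x axis, log2) in 5 comparisons of 2 against 2 pools, with 95% confidence intervals from limma as bars, coloured by role; filled points passed both thresholds and dotted lines mark a 2-fold change. Filled points number 30 in GL261(B6), 24 and 27 in GL261(scid) after CPA/6d and CPA/9d, 12 in B16F10 and 0 in LLC.

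The membrane proteins divided. Laptm5, a lysosomal membrane protein of blood-derived cells, was at 758 and 777 normalized reads in untreated GL261(B6) pools and 4831 and 5483 after CPA/6d, with no overlap (log2 2.74 ± 0.07, adjusted p = 1.2e-11). Lamp1, a main glycoprotein of the lysosomal membrane, went from 3015 and 3040.2 to 7595 and 8364 (log2 1.40 ± 0.06). Lamp2, its relative that also acts in chaperone-mediated autophagy, went from 3272 and 3181 to 6539.6 and 6392 and sat at the 2-fold threshold (log2 1.00 ± 0.06). Scarb2, the receptor that carries glucocerebrosidase to lysosomes, and Cln3, a membrane protein of the juvenile form of neuronal ceroid lipofuscinosis, rose by 1.40 and 1.36 on the log2 scale. Cd63, a tetraspanin of late endosomes and exosomes, went from 4563 and 4712 to 6709 and 6468, a separation without overlap that was below the fold threshold (log2 0.51 ± 0.06). The cholesterol exporter Npc1 (log2 0.49 ± 0.08) and the calcium channel Mcoln1 (log2 0.58 ± 0.14) were also below it.

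The lipid-degradation genes held some of the largest changes and some of the smallest. Lipa, the acid lipase that frees cholesterol from its esters, was at 349 and 409 normalized reads in untreated pools and 2542 and 2859 after CPA/6d (7.12-fold, log2 2.83 ± 0.09, adjusted p = 4.2e-11). Psap, the precursor of the saposins that assist sphingolipid breakdown, went from 11829 and 12887 to 71095 and 80451 (log2 2.61 ± 0.08). Npc2, which hands cholesterol to Npc1, went from 1593 and 1679 to 8716 and 8977 (log2 2.43 ± 0.06). The treated pools were above the untreated ones in all 3 genes, so that the cholesterol carrier Npc2 rose past the threshold while its partner Npc1 did not. Gm2a, the activator that presents ganglioside GM2 to hexosaminidase A, went from 1197 and 1306 to 5083 and 5450.2 (log2 2.07 ± 0.07), and Galc, which degrades galactosylceramide of myelin, rose by 1.10. Acid ceramidase Asah1 (log2 0.96 ± 0.06), the palmitoyl-protein thioesterase Ppt1 (log2 0.74 ± 0.08) and acid sphingomyelinase Smpd1 (log2 0.16 ± 0.10) were not called.

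Of the glycosidases, Man2b1, an α-mannosidase, had the largest change in GL261(B6), from 847 and 985 to 4178 and 4777 normalized reads (log2 2.29 ± 0.08). Gla (α-galactosidase A), Manba (β-mannosidase), Naglu (a heparan sulfate enzyme) and Fuca1 (α-fucosidase) also rose, by 2.03, 1.5, 1.12 and 1.11 on the log2 scale. Hexa, the α subunit of hexosaminidase A, went from 1515 and 1651 to 3619 and 3685 (log2 1.21 ± 0.06). Gusb, β-glucuronidase, went from 746 and 825 to 1459 and 1467 and was not called (log2 0.90 ± 0.07), as were Idua, Neu1 and Glb1, at 0.86, 0.85 and 0.71. Gaa, which degrades glycogen, was at 1479.7 and 1691 and 1750.1 and 1687, a difference with an interval of -0.04 to 0.28 on the log2 scale.

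The sulfatases stood lowest. Arsb, which acts on dermatan sulfate, was at 857 and 833 normalized reads in untreated pools and 741 and 817 in treated pools, and Ids, iduronate sulfatase, was at 697 and 723 and 698 and 702. The pools of Ids overlapped between the groups. Arsb had the lowest change of the 45 genes (log2 -0.12 ± 0.08, 95% interval -0.29 to 0.05), followed by Ids (log2 -0.02 ± 0.08, interval -0.19 to 0.14), and both intervals lay below a 2-fold rise. Arsa, the sulfatide-degrading enzyme, was at 0.67 ± 0.09 and Sgsh, a heparan sulfamidase, rose by 1.17. Tfeb itself was at 162 and 182 in untreated and 184 and 199 in treated pools (log2 0.15 ± 0.13, adjusted p = 0.31, interval -0.13 to 0.44). Over all 45 genes, 11 had an interval that lay below a 2-fold rise, and the share of all genes with such an interval was not computed.

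**Figure D2:**
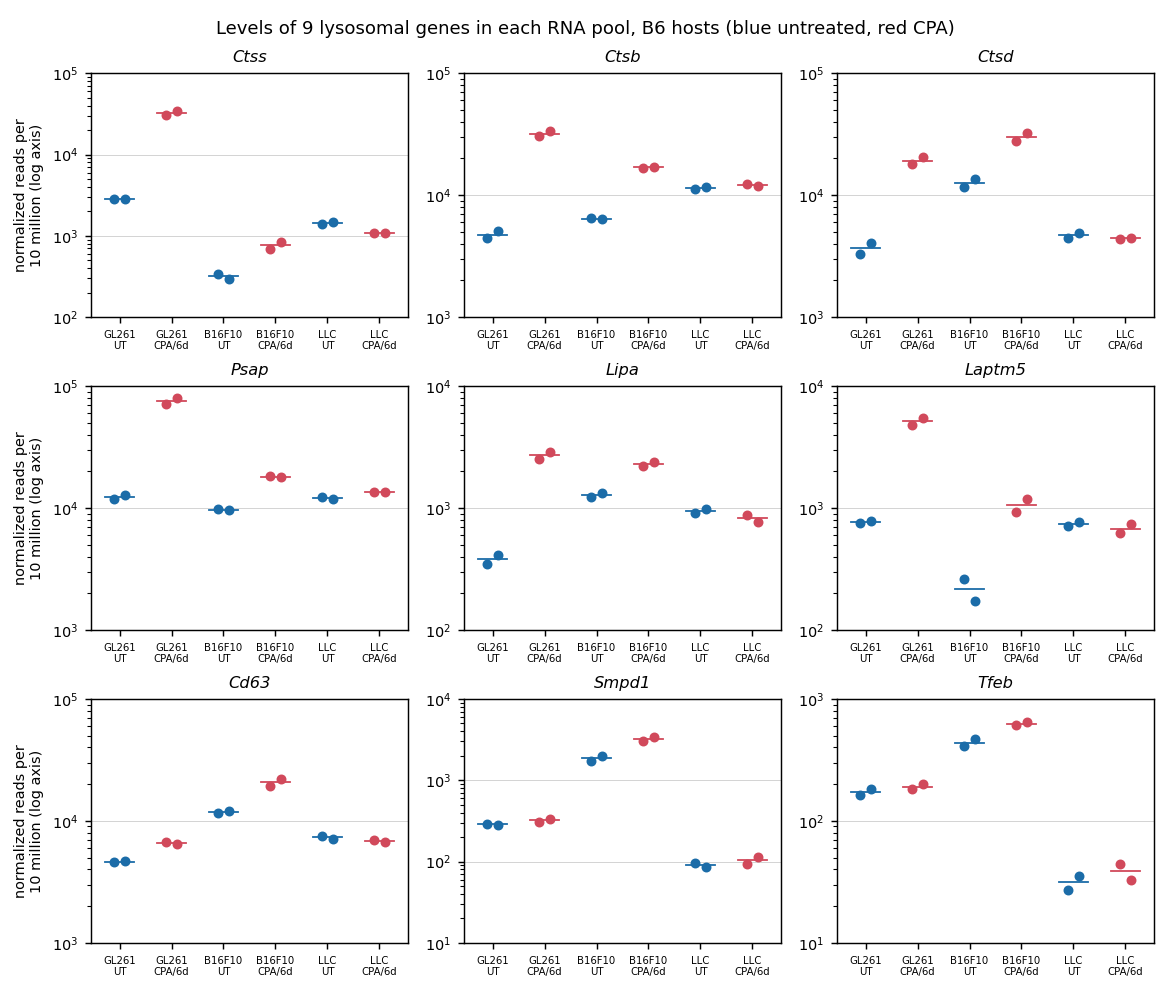
Normalized reads, per 10000000 reads (y axis, log scale) of 9 lysosomal genes in each RNA pool from B6 hosts, with untreated pools in blue, CPA/6d pools in red and a line at the mean of the 2 pools. In GL261(B6) the treated pools lie above the untreated ones in every panel, by little in Smpd1 and Tfeb, whereas in LLC the pools of Ctss lie lower after CPA/6d.

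The share of each library that fell on the 45 genes rose with these changes. It was 0.652 and 0.709% of the reads counted over genes in untreated GL261(B6) pools and 2.84 and 3.12% after CPA/6d. Cysteine cathepsins took 0.139 and 0.155% before and 0.981 and 1.08% after, and lipid-degradation genes, mostly Psap by reads, 0.195 and 0.21% before and 1.01 and 1.13% after. The share of the sulfatases moved from 0.0228 and 0.0227% to 0.0249 and 0.0259%. These are shares of reads and depend on transcript length as well as on transcript number.

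**Figure D3:**
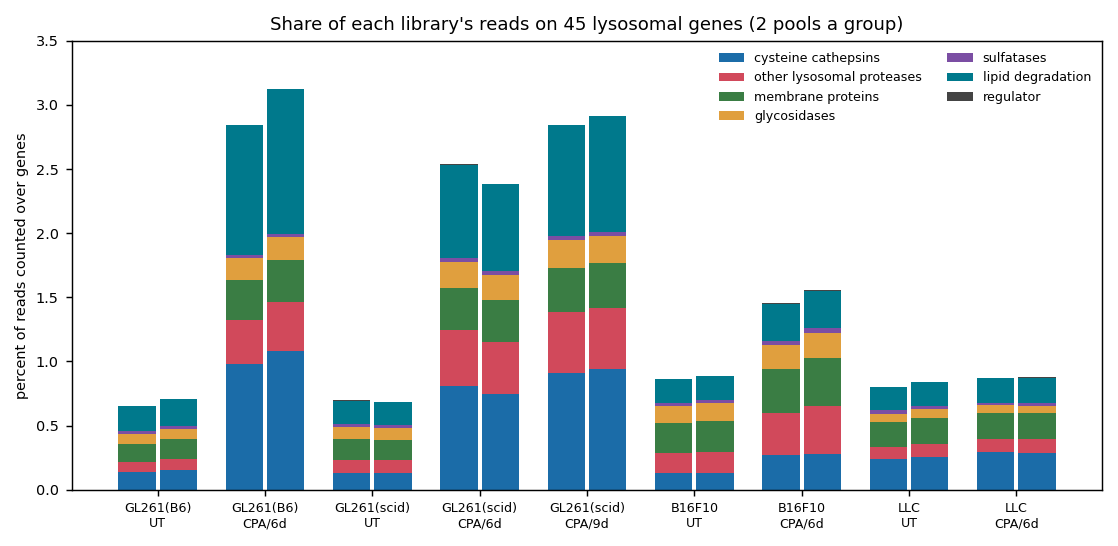
Percent of reads counted over genes (y axis) that fell on the 45 lysosomal genes in each of 18 libraries, stacked by role. The bars reach 2.84% and 3.12% in treated GL261(B6) pools, lie between 2.38% and 2.92% in treated GL261(scid) pools, and stay between 0.801% and 0.875% in all LLC pools.

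The promoters of the 45 genes were read for the E-box that TFEB is known to bind, because many of the genes moved together. RefSeq windows from 250 bases before to 50 bases after the start of a gene (GRCm38.p6) were found for 41 of the 45 genes, and not for Asah1, Ctsb, Ctsh and Npc1. The six-base motif CACGTG, which reads the same on both strands, was present in 14 of 41 (34.1%) and in 9.28% of 15701 genes with a window. The longer form TCACGTGA, which contains it, was present in 5 of 41 (12.2%) and in 1.51% of all genes. The 5 genes with the longer form were Cln3, Ctsa, Ctsd, Gla and Mcoln1, and they are shown 5′ to 3′ on the strand of the gene, with the motif in capitals, because they carry the most complete match.
Ctsa (chr2:164833740-164833772, plus strand): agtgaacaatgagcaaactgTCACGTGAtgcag
Ctsd (chr7:142387899-142387946, minus strand): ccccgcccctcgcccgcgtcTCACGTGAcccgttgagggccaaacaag
Cln3 (chr7:126583331-126583378, minus strand): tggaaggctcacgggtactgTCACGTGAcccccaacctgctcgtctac
Gla (chrX:134601173-134601220, minus strand): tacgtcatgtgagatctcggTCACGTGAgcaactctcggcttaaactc
Mcoln1 (chr8:3500453-3500500, plus strand): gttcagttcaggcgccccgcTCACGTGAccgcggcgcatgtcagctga

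The motif shown began 13 bases before the start of Ctsa, 46 before Mcoln1, 99 before Ctsd, 122 before Cln3 and 195 before Gla. Gla held the longer form a second time, 228 bases before its start, as did Ctsa, 4 bases after its start, and Cln3, Ctsd and Mcoln1 each held the six-base form once more. Of these 5 genes, 4 rose in GL261(B6) and Mcoln1 was not called. Lamp1 held the six-base form at 4 places before its start (61, 45, 28 and 15 bases), of which the stretch shown holds 2, and Lgmn held it once. Lamp1 and Lgmn are shown as examples of genes that rose in GL261(B6) and carry the six-base form without the longer one. Ctsf, Ctsl, Naglu and Sgsh did so too and are not shown, and Arsa, Gaa and Glb1 carry it and were not called.
Lamp1 (chr8:13159126-13159160, plus strand): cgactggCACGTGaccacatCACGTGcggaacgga
Lgmn (chr12:102439114-102439161, minus strand): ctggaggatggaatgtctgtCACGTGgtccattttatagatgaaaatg

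Genes with and without the motif are given side by side, with no test. In GL261(B6), 10 of 14 genes with the six-base motif were called higher and 18 of 27 without it, with median log2 fold changes of 1.38 and 1.21. By role, the motif was in 2 of 7 windows of cysteine cathepsins (Ctsf and Ctsl), 3 of 4 of the other proteases, 3 of 7 of membrane proteins, 4 of 11 of glycosidases and 2 of 4 of sulfatases. It was in 0 of 7 windows of lipid-degradation genes, 4 of which rose by over 2 on the log2 scale. A match is a string of letters in a window, and binding was not measured.

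In GL261 tumors of scid mice CPA/6d raised 24 of the 45 genes and lowered 0 (18.3% of all genes were called higher and 9.17% lower), with a median log2 fold change of 1.08 over the 45 genes and -0.05 over all genes. All 24 were among the 30 that rose in GL261(B6), and the share of all genes called higher in both was not computed. By role, 9 of 9 cysteine cathepsins, 3 of 4 other proteases, 3 of 8 membrane proteins, 3 of 11 glycosidases, 1 of 4 sulfatases and 5 of 8 lipid-degradation genes rose. The 6 that passed in GL261(B6) only were Tpp1, Lamp2, Cln3, Hexa, Manba and Naglu, whose log2 fold changes in GL261(scid) lay between 0.69 and 0.96. All 16 macrophage markers were called higher in GL261(scid), with summed levels of 9011 and 8180.1 normalized reads in untreated pools and 63299 and 58158 after CPA/6d, and all 4 muscle and skin markers that were tested rose as well, with sums of 192.7 and 1322 before and 9944 and 11149 after. Other lists rose too. Fibroblast markers summed to 94001 and 108788 before and 452618 and 370068 after. Dendritic cell markers summed to 678 and 698 before and 2515 and 2354 after, and endothelial markers to 1261 and 1208 before and 3406 and 2954 after. The sums of glial, epithelial and melanocyte markers fell. The part of any of these lists in the lysosomal response was not tested.

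In GL261(scid) tumors Ctss was at 1682 and 1600.4 normalized reads in untreated pools, 15342 and 14124 after CPA/6d and 18042 and 18522 after CPA/9d. Treated and untreated pools did not overlap (CPA/6d log2 3.16 ± 0.05, adjusted p = 8.3e-11). Laptm5 went from 872 and 788 to 6088 and 5717 with CPA/6d (log2 2.83 ± 0.06) and to 6193 and 7094 with CPA/9d. Ctsf, a cysteine cathepsin with a long propeptide, went from 52.9 and 52 to 366 and 339.9 (log2 2.73 ± 0.11) and 488 and 492. Both again lay apart from untreated pools. Ctsb (log2 2.72 ± 0.06), Lgmn (log2 2.39 ± 0.05), Man2b1 (log2 2.17 ± 0.05), Lipa (log2 2.16 ± 0.07) and Psap (log2 2.06 ± 0.06) rose with CPA/6d as well.

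At the low end in GL261(scid), Ids was at 767 and 755 in untreated pools, 694 and 694 after CPA/6d and 649 and 697 after CPA/9d (CPA/6d log2 -0.13 ± 0.05, interval -0.25 to -0.01). Mcoln1 was at 345 and 353, 336 and 359.8 and 414 and 344, with overlapping pools (CPA/6d log2 -0.01 ± 0.07). Arsb was at 1180.1 and 1328, 1226 and 1305 and 1268 and 1275 (CPA/6d log2 0.02 ± 0.06). Glb1, β-galactosidase, was at 449 and 447, 462 and 459 and 483 and 485 (CPA/6d log2 0.04 ± 0.06, CPA/9d 0.11 ± 0.07). The scid libraries are labelled unstranded, and exons of 12 of the 45 genes overlap those of another gene in the mm9 annotation, among them Ctsb with Fdft1, Ctsa with Neurl2 and Pltp, Lamp1 with Grtp1 and Ctsd, on its own strand, with 6330512M04Rik, and reads could be shared there.

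With CPA/9d, 27 of the 45 genes rose in GL261(scid) and 0 fell (20.0% of all genes higher, 11.3% lower). They were the 24 of CPA/6d and Cln3, Hexa and Manba, at log2 1.09 ± 0.09, 1.00 ± 0.05 and 1.23 ± 0.07. The median was 1.28 over the 45 genes and -0.04 over all genes, with Ctss at 3.48, Ctsf at 3.20 and Laptm5 at 3.00 at the top and Ids at -0.18, Arsb at 0.02 and Glb1 at 0.11 at the bottom. Both scid schedules were compared with the same untreated pools. The share of reads on the 45 genes was 0.697 and 0.686% in untreated pools, 2.54 and 2.39% after CPA/6d and 2.85 and 2.92% after CPA/9d.

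CPA/9d was then compared directly with CPA/6d. By limma 0 of the 45 passed both thresholds in either direction (0.732% of all genes were called higher with CPA/9d and 0.0201% lower), 0 passed with voom weights, and 23 were higher and 0 lower at an unadjusted p under 0.05 (11.7% and 9.93% of all genes). The 3 with the largest differences were Lipa, with 2137 and 1903 normalized reads after CPA/6d and 2940.4 and 2815 after CPA/9d, Ctsl, with 9988 and 8342 and 12819 and 12885, and Ctsk, with 2219.9 and 1909 and 2777 and 3010.1. In each the CPA/9d pools were higher and did not overlap those of CPA/6d, by 0.51 ± 0.07, 0.49 ± 0.08 and 0.49 ± 0.07 on the log2 scale (adjusted p = 5.8e-04, 0.0041 and 0.0019). The lowest were Ctsc, at 3302 and 3244 and 2965 and 3352 (log2 -0.05 ± 0.07), Npc1, at 1678 and 1742 and 1639 and 1659 (log2 -0.05 ± 0.06), and Ids (log2 -0.05 ± 0.07). All 45 intervals lay below a 2-fold rise, and the share of all genes with such an interval was not computed. Summed macrophage markers were 69885 and 73747 after CPA/9d. Muscle and skin markers summed to 21325 and 22530.5 after CPA/9d, and 3 of 4 tested were called higher than after CPA/6d (Acta1, Ckm and Myh4). Osteoclast and giant cell markers, a list that includes Ctsk itself, summed to 5044 and 4566 after CPA/6d and 6203 and 6608 after CPA/9d. On that list Tm7sf4 was called higher with CPA/9d (1.25). Atp6v0d2 (0.98), Acp5 (0.12) and Mmp9 (0.09) were not called. Fibroblast markers summed to 442648 and 512541 after CPA/9d and overlapped the pools of CPA/6d. Among them Dcn, Lum and Fap were higher with CPA/9d by 0.63, 0.55 and 0.53 on the log2 scale, below the fold threshold, and the others differed by less. The part of these lists in the lysosomal differences was not tested. The 2 schedules also differ in the time over which the injections were given, and this cannot be told apart from the interval itself.

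The response of GL261(B6) was then set against that of GL261(scid) to CPA/6d in a test of the difference between the responses. By limma 0 of the 45 genes passed both thresholds (1.30% of all genes were called higher in GL261(B6) and 0.962% lower), 0 passed with voom weights, and at an unadjusted p under 0.05 the response was higher in GL261(B6) for 24 and lower for 4 (23.4% and 9.54% of all genes). The median difference was 0.21 on the log2 scale over the 45 genes and 0.10 over all genes. Gm2a was nearest to the threshold. It went from 1462 and 1471 to 3106 and 3096 normalized reads in GL261(scid), where it rose by 1.08, and the difference from GL261(B6) was 0.99 ± 0.08 (adjusted p = 2.7e-05). Ctsk, which went from 404 and 457 to 2219.9 and 1909 in GL261(scid), differed by 0.86 ± 0.16, and Idua, an iduronidase that went from 193.5 and 193.8 to 343 and 361 in GL261(B6) and from 490.5 and 475 to 528 and 508 in GL261(scid), by 0.76 ± 0.11. The differences in the other direction were led by Ctsf, from 34.1 and 33 to 131 and 152 in GL261(B6) (-0.68 ± 0.21), Smpd1, from 298 and 300.2 to 453 and 459.9 in GL261(scid) (-0.45 ± 0.11), and Galc, from 120.5 and 158 to 301 and 293 in GL261(B6) and 161 and 137 to 419 and 406 in GL261(scid) (-0.37 ± 0.19). Without the untreated GL261(B6) pool with fewer reads 2 genes passed. Host and library kit change together here and cannot be told apart. Exons of Idua overlap those of Dgkq and Slc26a1 on the other strand, and reads could be shared there in the scid libraries, labelled unstranded.

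In B16F10 tumors CPA/6d raised 12 of the 45 genes and lowered 0 (6.22% of all genes higher, 3.12% lower), with a median log2 fold change of 0.75 over the 45 genes and 0.00 over all genes. The 12 were 6 cysteine cathepsins (Ctsb, Ctsf, Ctsh, Ctsl, Ctso and Ctss), Ctsa and Ctsd, Laptm5 and Scarb2, Arsa and Gm2a. All but Arsa had also risen in GL261(B6) and in GL261(scid) on both schedules, an overlap for which no share over all genes was computed. None of the 11 glycosidases passed, though 9 were higher at an adjusted p under 0.05 with no minimum fold change (22.7% of all genes). Beside this, 8 of 16 macrophage markers rose in B16F10, with summed levels of 2925 and 2219 normalized reads in untreated pools and 5378 and 6212 after CPA/6d, and 0 were at 0 reads. Of 8 glial markers tested in B16F10, 3 were also called higher, Gfap (2.15), S100b (1.82) and Mbp (1.34), and the summed level of the 10 listed went from 8941 and 9419 to 15567 and 15981. The part of either list in the change was not tested.

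Ctsf had the largest change in B16F10, from 31.1 and 52.3 to 226 and 272 normalized reads (log2 2.59 ± 0.26, adjusted p = 1.3e-04). Laptm5 went from 264 and 173 to 928 and 1182 (log2 2.29 ± 0.20, adjusted p = 5.9e-05), and Ctso, a little-studied cathepsin, from 83.2 and 73.8 to 238 and 193.8 (log2 1.44 ± 0.19). Treated pools were above untreated pools in each. Ctss went from 338 and 298 to 692 and 839 (log2 1.26 ± 0.14), Ctsb from 6488 and 6386 to 16847 and 17081 (log2 1.40 ± 0.09) and Ctsd from 11742 and 13453 to 27561 and 32367 (log2 1.25 ± 0.12). Arsa, at 749.9 and 821 and 1585 and 1687, passed at log2 1.06 ± 0.10, close to the threshold. Gm2a rose by 1.23, Ctsl by 1.28 and Ctsh by 1.42.

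The lowest members in B16F10 were Galc, at 802 and 851 in untreated and 712 and 656 in treated pools (log2 -0.27 ± 0.11), Idua, at 155 and 133 and 117 and 129 (log2 -0.22 ± 0.18), and Manba, at 676 and 606 and 560.1 and 586 (log2 -0.16 ± 0.11). Several proteins that rose in GL261(B6) stayed below the thresholds here. Npc2 was at 3479 and 4033 and 4094 and 4175 (log2 0.14 ± 0.10, interval -0.08 to 0.37), Ctsc at 675 and 582 and 749 and 727 (log2 0.23 ± 0.12), and Lamp1 at 7604 and 8276 and 9151 and 10083 (log2 0.28 ± 0.10). Lipa (log2 0.84 ± 0.10), Psap (log2 0.89 ± 0.09), Ctsk (log2 0.89 ± 0.13), Lgmn (log2 0.73 ± 0.09), Hexa (log2 0.62 ± 0.10) and Cd63 (log2 0.81 ± 0.10) were positive and below 2-fold. Markers of muscle and skin summed to 106 and 9605 normalized reads in the treated B16F10 pools, so 1 treated pool held far more reads of such tissue than the other. Leaving out any 1 of the 4 pools, between 11 and 15 of the 45 genes passed.

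In LLC tumors 0 of the 45 genes passed in either direction by limma, and 0 with voom weights (1.98% of all genes were called higher and 0.946% lower). At an unadjusted p under 0.05, 5 were higher and 15 lower (19.1% and 21.2% of all genes). The intervals of all 45 lay below a 2-fold rise, and the share of all genes with such an interval was not computed. The median log2 fold change was -0.08 over the 45 genes and -0.02 over all genes. Of 16 macrophage markers 0 were called higher and Emr1, which encodes a surface receptor of macrophages, was called lower, with summed levels of 16653 and 20298 normalized reads in untreated pools and 12641 and 13459 after CPA/6d. Other lists moved too. Endothelial markers summed to 2691 and 2272 before and 1219 and 1104 after, and all but Vwf (-0.01) were called lower. Fibroblast markers summed to 21850 and 23016 before and 32477 and 34559.5 after, and neutrophil markers to 928 and 694 before and 3318 and 1324 after. The part of any of these lists in the lysosomal values was not tested. The share of reads on the 45 genes was 0.801 and 0.842% before and 0.873 and 0.875% after.

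The largest positive value in LLC was Ctsl, from 8829 and 8444 to 13222 and 12025 normalized reads (log2 0.55 ± 0.07, adjusted p = 7.8e-04), followed by Ctsh, at 106 and 130.2 and 136 and 162 (log2 0.33 ± 0.16), and Lamp2, at 2852 and 2738 and 3556 and 3407 (log2 0.32 ± 0.06). In each of the 3 the treated pools lay above the untreated ones. The lowest values were those of Ctsc, at 519 and 827 and 384 and 482 (log2 -0.61 ± 0.18), Arsa, at 1569 and 1659 and 1071 and 1061 (log2 -0.60 ± 0.06, adjusted p = 1.4e-04), and Galc, at 409.6 and 466 and 305 and 283 (log2 -0.57 ± 0.09). Ctss, which led the response of GL261, was at 1412 and 1492 in untreated and 1087 and 1083 in treated LLC pools (log2 -0.42 ± 0.06, interval -0.55 to -0.29). Ctsb was at 11275 and 11594 and 12251 and 11806 (log2 0.07 ± 0.07, interval -0.08 to 0.23) and Psap at 12255 and 11886 and 13423 and 13507 (log2 0.16 ± 0.07).

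The differences between the responses were tested directly. The response of GL261(B6) was higher than that of LLC for 35 of the 45 genes and lower for 0 (12.7% of all genes higher, 5.57% lower), with a median difference of 1.61 on the log2 scale over the 45 genes and -0.01 over all genes. All 9 cysteine cathepsins and all 4 other proteases were among the 35, with 4 membrane proteins, 9 glycosidases, 2 sulfatases and 7 lipid-degradation genes. Ctss had the largest difference (3.95 ± 0.09, adjusted p = 3.8e-09), then Ctsc (3.17 ± 0.24) and Lipa (3.02 ± 0.13). Ctsk (2.91 ± 0.28), Laptm5 (2.87 ± 0.12), Ctsb (2.69 ± 0.11), Ctsd (2.47 ± 0.14) and Psap (2.46 ± 0.11) followed. At the other end were Arsb (-0.18 ± 0.15), Tfeb (-0.14 ± 0.29), at 27.2 and 35.4 normalized reads in untreated and 44.3 and 32.9 in treated LLC pools, and Smpd1 (-0.03 ± 0.19), at 95.9 and 86.4 and 93.9 and 115. Lipa was at 904 and 977 in untreated and 880.0 and 772 in treated LLC pools.

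Against B16F10, the response of GL261(B6) was higher for 17 of the 45 genes and lower for 0 (6.25% of all genes higher, 4.43% lower), with a median difference of 0.74 over the 45 genes and 0.03 over all genes. The 17 were Ctsb, Ctsc, Ctsk, Ctsl, Ctss, Ctsz, Ctsd, Lgmn, Lamp1, Gla, Idua, Manba, Man2b1, Galc, Psap, Lipa and Npc2. Ctsc differed most (2.33 ± 0.12, adjusted p = 4.7e-06), followed by Npc2 (2.29 ± 0.11), Ctss (2.27 ± 0.15) and Ctsk (2.23 ± 0.18). The lowest values were those of Smpd1 (-0.62 ± 0.14), from 292 and 283 to 308 and 336 normalized reads in GL261(B6) and from 1722 and 2004 to 3022 and 3378 in B16F10, of Ctsf (-0.55 ± 0.36) and of Arsa (-0.39 ± 0.12), from 357 and 346 to 574 and 546 in GL261(B6). For Laptm5, Ctsh and Gm2a, which rose in both models, the difference was 0.46 ± 0.25, 0.90 ± 0.18 and 0.84 ± 0.11 and did not pass. Both tests share the GL261(B6) pools, and GL261 tumors had 2 injections against 3, a difference that goes with the tumor model and cannot be told apart from it.

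The models were also compared before treatment. Against LLC, 5 of the 45 genes were higher in untreated GL261(B6) tumors and 7 lower (17.5% and 13.9% of all genes), so the lysosomal genes were called higher at a rate below that of all genes and lower at a rate near it, with a median difference of -0.35 over the 45 genes and -0.05 over all genes. Ctsh was higher, at 679 and 789 normalized reads against 106 and 130.2 in LLC (log2 2.63 ± 0.13, adjusted p = 1.9e-06), as were Tfeb, at 162 and 182 against 27.2 and 35.4 (log2 2.43 ± 0.21), and Gm2a, at 1197 and 1306 against 254 and 323 (log2 2.12 ± 0.12). Arsb (1.66) and Smpd1 (1.65) were the other 2. Ctsl was lower, at 1761 and 1892 against 8829 and 8444 (log2 -2.24 ± 0.06), as were Arsa (-2.20 ± 0.07) and Galc (-1.66 ± 0.15), with Ctsb (-1.27), Ctso (-1.24), Lamp1 (-1.20) and Lipa (-1.31).

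Against B16F10, 3 of the 45 genes were higher in untreated GL261(B6) tumors and 19 lower (20.1% and 16% of all genes), with a median difference of -0.45 over the 45 genes and 0.00 over all genes. The 3 were Ctss (log2 3.15 ± 0.08), Ctsh, at 222 and 178 normalized reads in B16F10 (log2 1.88 ± 0.14), and Laptm5 (log2 1.84 ± 0.18). The lowest were Naglu, at 293 and 327 against 2314 and 2521 (log2 -2.96 ± 0.09), Smpd1 (log2 -2.69 ± 0.09) and Galc (log2 -2.57 ± 0.14). Of the 11 glycosidases 7 were lower in GL261(B6), as were the aspartic protease Ctsd (-1.78), the tetraspanin Cd63, at 4563 and 4712 against 11625 and 12067 (-1.35), and Tfeb, at 412 and 467 in B16F10 (-1.35). Melanosomes are organelles related to lysosomes, and several of these genes are active in pigment cells. Which cells of the B16F10 tumors the reads came from was not tested.

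After CPA/6d the order of the models changed for part of the list. Treated GL261(B6) tumors were higher than treated LLC tumors for 24 of the 45 genes and lower for 0 (22.7% and 12.8% of all genes), with a median of 1.31 over the 45 genes and -0.04 over all genes. Ctss (4.91 ± 0.06), Ctsh, at 3531 and 3793 normalized reads in treated GL261(B6) (4.62 ± 0.09), and Gm2a, at 221 and 238 in treated LLC (4.52 ± 0.06), led. Arsa (-0.93 ± 0.06), Ctsl (-0.38 ± 0.06) and Mcoln1, at 303 and 393 against 384 and 398 (-0.18 ± 0.13), were lowest. Ctsl and Lamp1 (0.22 ± 0.06) had been lower in GL261(B6) than in LLC before treatment and were not called after it.

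Against treated B16F10 tumors, 13 of the 45 genes were higher and 9 lower in treated GL261(B6) (23.3% and 17.0% of all genes), with a median of 0.05 over the 45 genes and 0.11 over all genes. Both counts were near these shares over all genes, and no difference from them was tested. The 13 held 6 cysteine cathepsins, led by Ctss (5.42 ± 0.12, adjusted p = 2.5e-06), Ctsc (3.04 ± 0.08) and Ctsh, at 489.5 and 583 normalized reads in treated B16F10 (2.77 ± 0.11), and 0 cysteine cathepsins were lower. Psap, at 9823 and 9564 in untreated and 18199.8 and 17814 in treated B16F10 pools, was also higher in GL261(B6) (2.07 ± 0.11), as were Lgmn (1.85), Laptm5 (2.30) and Npc2 (1.10). Smpd1 (-3.31 ± 0.10), Naglu, at 687 and 659.5 against 3047 and 3221 (-2.22 ± 0.08), and Tfeb, at 607 and 642 in treated B16F10 (-1.70 ± 0.11), were the lowest, and Cd63, at 19304 and 22248 in treated B16F10, was lower too (-1.65 ± 0.10). Npc2 turned from lower (-1.19 ± 0.08) to higher (1.10 ± 0.08) between the 2 comparisons. These counts depend on scaling: by total reads, which moves the median of all genes from 0.11 to 0.42, 16 of the 45 were higher and 5 lower. Before treatment the same scaling moves the median of all genes from 0.00 to 0.32 against B16F10 and from -0.05 to 0.13 against LLC.

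**Figure D4:**
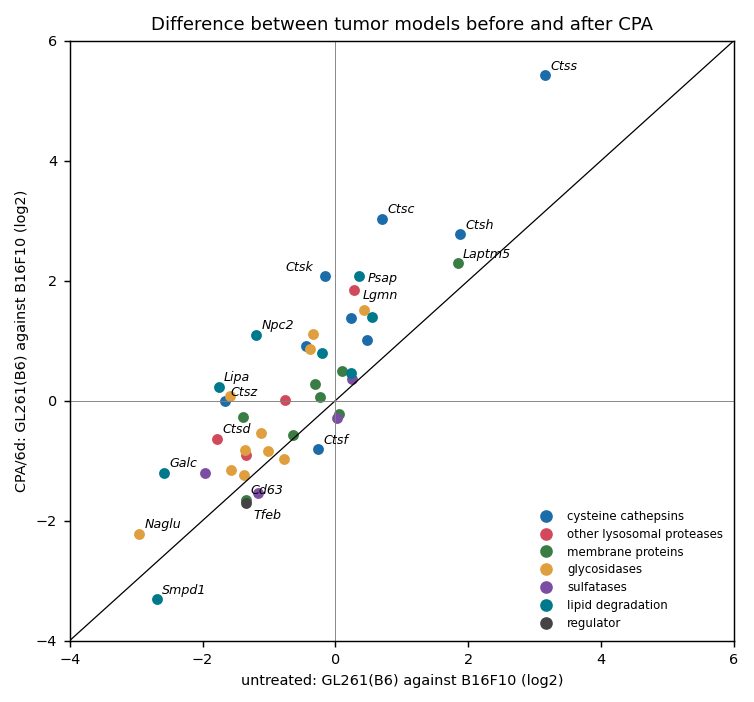
Log2 difference of each of the 45 lysosomal genes between GL261(B6) and B16F10 tumors, untreated (x axis) and after CPA/6d (y axis), coloured by role, with the line of equal difference. Points above the line rose more in GL261(B6): Ctss lies at 3.15 and 5.42, while Smpd1 lies below the line at -2.69 and -3.31.

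Other lysosomal genes were read from further lists. Of 30 further hydrolases 22 rose in GL261(B6) and 0 fell, with Ctse (3.27 ± 0.54) and Lyz1, a lysozyme (3.24 ± 0.13), at the top and a median of 1.67. In GL261(scid) 19 rose with CPA/6d, led by Lyz1 (3.10) and Lyz2 (3.00), and 20 with CPA/9d. In B16F10 5 of 28 rose, led by the hyaluronidase Hyal1 (1.58 ± 0.12) and Pld3 (1.5 ± 0.10), and in LLC 0 of 27 rose and Lyz1 fell by 1.02. Lyz2 is also on the list of macrophage markers. Over all genes tested, 17.8% were called higher in GL261(B6), 18.3% and 20.0% in GL261(scid) with CPA/6d and CPA/9d, and 6.22% in B16F10. In LLC 1.98% of all genes were called higher and 0.946% lower.

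Of the further membrane proteins and transporters, 8 of 23 rose in GL261(B6), led by the histidine and peptide transporter Slc15a3 (3.14 ± 0.08) and the phagosomal metal transporter Slc11a1 (3.05 ± 0.10). In GL261(scid) 7 rose and Gpnmb fell with CPA/6d, in B16F10 4 rose, led by Cd68, a glycoprotein of macrophage lysosomes (2.08 ± 0.13), and in LLC Gpnmb alone rose (1.05 ± 0.06). Of 19 subunits of the V-ATPase, the proton pump of the lysosome, 3 rose in GL261(B6), with Atp6v0d2, an isoform of macrophages and osteoclasts, from 75.4 and 100.5 to 1478 and 1704 normalized reads (log2 4.17 ± 0.13) and Tcirg1, the a3 subunit, at 1.92 ± 0.08. Atp6v0d2 also rose in B16F10, from 20.1 and 22.8 to 238 and 186 (log2 3.24 ± 0.24), 1 of 2 subunits there. In GL261(scid) 2 subunits rose with CPA/6d and Atp6v0e2 fell, and in LLC 0 passed. Of all genes, 17.8% were called higher in GL261(B6), 18.3% in GL261(scid) with CPA/6d, 6.22% in B16F10 and 1.98% in LLC. In both GL261 models the counts of V-ATPase subunits were near or below these shares, and no difference from them was tested. The median log2 fold change in GL261(B6) was 0.43 over the V-ATPase list and -0.02 over all genes.

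Of 19 genes for the delivery of enzymes to lysosomes, 4 rose in GL261(B6), led by Igf2r, the large mannose 6-phosphate receptor (2.32 ± 0.10), and Sumf1, which activates the sulfatases (1.71 ± 0.09). In GL261(scid) 3 rose with CPA/6d and Gnptab fell, in B16F10 0 passed and in LLC Sort1 rose (1.71 ± 0.21). In both GL261 models these counts were near the same shares over all genes. Of 18 autophagy genes 0 passed in GL261(B6), where Atg7 (0.92 ± 0.14) and Uvrag (0.90 ± 0.09) had the largest values. In GL261(scid) 0 passed with CPA/6d and 2 rose with CPA/9d, Gabarap (1.08 ± 0.05) and Map1lc3b (1.04 ± 0.06), and in B16F10 Map1lc3a rose (1.07 ± 0.15). These autophagy counts were near or below the shares of all genes called higher, which were 20.0% with CPA/9d and 6.22% in B16F10.

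**Figure D5:**
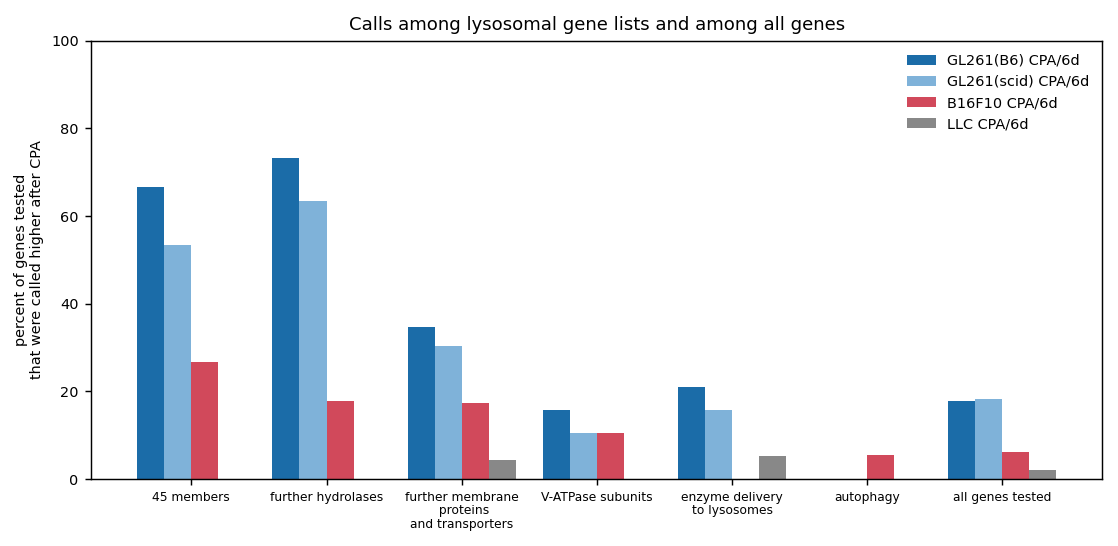
Percent of genes tested that were called higher after CPA/6d (y axis) in each lysosomal gene list and among all genes, in 4 tumor models. In GL261(B6) 66.7% of the 45 genes were called higher and 17.8% of all genes, and in LLC 0 of the 45.

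The relatives of Tfeb behaved apart from it. In GL261(B6), Mitf went from 98.6 and 97.6 to 567 and 590.0 normalized reads (log2 2.55 ± 0.11, adjusted p = 7.8e-10) and Tfec from 28 and 37.3 to 292 and 265 (log2 3.07 ± 0.19, adjusted p = 1.7e-08). Both rose in GL261(scid) with CPA/6d, by 2.16 and 2.09, whereas Tfe3 was at 0.78 ± 0.08 in GL261(B6) and below the fold threshold. In B16F10, where Mitf is the master regulator of the pigment cell, it was at 9744 and 9659 in untreated and 6333 and 5155 in treated pools (log2 -0.76 ± 0.11, not called). In LLC, Mitf was at 199 and 189.7 and 299.6 and 214 and did not pass (log2 0.38 ± 0.15). Tfeb was at 239 and 259 in untreated GL261(scid) pools, 306 and 275 after CPA/6d and 344 and 372 after CPA/9d, passing neither time (CPA/9d log2 0.52 ± 0.09).

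Other cell types also moved with CPA/6d in GL261(B6) tumors, and their part in the lysosomal changes was not tested. Called higher were 6 of 8 neutrophil markers, 10 of 10 T and NK cell markers, 7 of 8 dendritic cell markers, 7 of 8 fibroblast markers, 1 of 7 endothelial markers and 5 of 5 osteoclast and giant cell markers, a list that includes Ctsk itself. Of all genes, 17.8% were called higher and 6.49% lower, and the endothelial count was near the first of these shares. Of 10 glial markers 6 were lower. In GL261(scid), 4 of 8 T and NK cell markers were called higher with CPA/6d (18.3% of all genes), and the list summed to 201 and 182 normalized reads before and 707 and 714 after. Among the called were Cd4 (3.35) and Cd8a (2.78), while Cd3g (0.39) and Cd8b1 (1.51) were not called and Cd3e was at 0 reads after CPA/6d. Which cells these reads came from was not tested. In LLC 0 of the T and NK cell markers passed the filter on low reads, and in B16F10 1 did.

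Of the 45 genes, 11 rose in all 4 of GL261(B6), GL261(scid) on CPA/6d and on CPA/9d, and B16F10: the cysteine cathepsins Ctsb, Ctsf, Ctsh, Ctsl, Ctso and Ctss, the proteases Ctsa and Ctsd, the membrane proteins Laptm5 and Scarb2, and the sphingolipid activator Gm2a. GL261(scid) comparisons share their untreated pools. Taken singly, 17.8%, 18.3%, 20.0% and 6.22% of all genes were called higher in these 4 comparisons. The share of all genes higher in all 4, or in none of the 5 below, was not computed, so these overlap counts have no background beside them. In none of the 5 comparisons with untreated tumors did Npc1, Cd63, Mcoln1, Glb1, Gaa, Gusb, Idua, Neu1, Ids, Arsb, Smpd1, Asah1, Ppt1 or Tfeb pass, which is 14 of the 45.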

How the data were processed

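RNA was poly(A)-selected, and reads were mapped by the authors with TopHat2 2.0.13 to mm9 and compared with DESeq. The B6 libraries are labelled strand-specific; the scid libraries are labelled unstranded, and the protocol text common to all samples names a strand-specific preparation. How reads were assigned to genes by strand is not given in the sources used here. The 10 deposited tables hold, for 23284 RefSeq genes, a signal, which is the mean over the 2 pools of a group of reads divided by DESeq size factors, beside the authors' own ratios, fold changes and p-values, which were not used. The headings of the LLC and B16F10 tables give a dose slightly above that of the labels, which is used here.

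The deposited group means were separated into the whole reads of the 2 pools. This succeeded for 100% of genes with reads, and size factors recomputed from the result equalled those found to within 1.7e-11. The pools are known only as the pool with more and the pool with fewer reads, not by number. Reads were normalized by trimmed mean of M values (TMM; 30% of ratios and 5% of levels trimmed) over the 12 B6 and over the 6 scid libraries, scaled to 10000000 reads and fitted with limma 3.58.1 (R 4.3.3; trended moderated test, log2(normalized reads + 1)) on the 4 libraries of a comparison, or 8 for a difference of responses. Genes needed 10 reads at the median depth in 2 libraries and 15 reads in all. A gene was called at more than 2-fold with p under 0.001 before adjustment, the thresholds of the study. The script was tested on simulated data. A count of 0 allows up to 3 reads, and intervals are 95%.

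The 45 genes and all lists were chosen with earlier results of these data known. Named in every comparison were the 3 genes with the largest rise and the 3 with the largest fall, a fixed set (Ctsb, Ctsd, Ctsk, Ctsl, Ctss, Lamp1, Lamp2, Laptm5, Cd63, Npc1, Npc2, Psap, Gm2a, Hexa, Gusb, Lgmn, Lipa, Arsb, Tfeb) where it carried a result, the genes whose responses differed, and the 2 largest changes of each further list. Promoter sequences are from RefSeq (GRCm38.p6); gene positions are mm9 (Gencode vM1). Alternatives were 2 other normalizations, a pseudocount of 10, no filter on low reads, voom weights, all libraries of a host in 1 fit, other thresholds, each pool left out, and TMM over the compared libraries alone, added after seeing the data.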

Additional observations from a re-analysis of the deposited data

Results flagged for a closer look

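The response to CPA/6d differed between tumor models, by a test of the difference itself, for 35 of the 45 genes against LLC and for 17 against B16F10, where 12.7% and 6.25% of all genes were called higher. The values below are the log2 response of GL261(B6) minus that of the other model, and all are positive. Against LLC the cysteine cathepsins were Ctss (3.95), Ctsc (3.17), Ctsk (2.91), Ctsb (2.69), Ctsf (2.18), Ctsz (2.10), Ctsh (1.99), Ctsl (1.87) and Ctso (1.83). The other proteases were Ctsd (2.47), Lgmn (2.17), Ctsa (1.98) and Tpp1 (1.20), and the membrane proteins were Laptm5 (2.87), Cln3 (1.49), Lamp1 (1.42) and Scarb2 (1.35). The glycosidases were Man2b1 (2.36), Gla (1.78), Manba (1.65), Naglu (1.61), Gusb (1.39), Idua (1.28), Hexa (1.16), Fuca1 (1.10) and Neu1 (1.08), the sulfatases were Sgsh (1.73) and Arsa (1.27), and the lipid-degradation genes were Lipa (3.02), Psap (2.46), Gm2a (2.39), Npc2 (2.28), Galc (1.67), Asah1 (1.17) and Ppt1 (1.08). Arsa was among them with both responses short of the call thresholds, at 0.67 in GL261(B6) and -0.60 in LLC, as were Gusb, Idua, Neu1, Asah1 and Ppt1.

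Against B16F10 the cysteine cathepsins were Ctss (2.27), Ctsc (2.33), Ctsk (2.23), Ctsb (1.36), Ctsz (1.65) and Ctsl (1.13), the other proteases were Ctsd (1.14) and Lgmn (1.58), and the only membrane protein was Lamp1 (1.12). The glycosidases were Man2b1 (1.44), Gla (1.24), Manba (1.66) and Idua (1.08), and the lipid-degradation genes were Lipa (1.99), Psap (1.72), Npc2 (2.29) and Galc (1.37). Ctsb, Ctsl, Ctss and Ctsd rose in both models and by more in GL261(B6). Macrophage markers moved by different amounts in the 3 models as well, with 14 of 16 called higher in GL261(B6), 8 in B16F10 and 0 in LLC. Markers of other cell types also moved by different amounts, and the part of any cell type in these differences was not tested. GL261 tumors had 2 injections and the other tumors 3, which cannot be told apart from the model.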

How the results depend on the processing

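Of 364 recomputed counts of called genes, 338 stayed within 1.5 times the reported count, and each of 531 recomputed calls was kept for the genes that passed among the 3 highest and 3 lowest of a comparison, with 0 turned in direction. No paired analysis was possible because the pools of a group could not be matched to their numbers. With an adjusted p under 0.05 at any fold change, and with the share of all genes in parentheses, LLC gave 2 genes higher and 10 lower (13.6% and 14.5%), B16F10 37 higher (22.7%), GL261(scid) 40 higher and 1 lower with CPA/6d (36.5% and 40.5%) and the same numbers with CPA/9d (37.2% and 40.8%), and CPA/9d against CPA/6d 9 higher (4.40%). The same rule gave 11 higher and 24 lower for untreated GL261(B6) against LLC (35.8% and 39.6%), 11 higher and 27 lower against B16F10 (38.8% and 38.5%), 40 higher and 2 lower for treated GL261(B6) against LLC (38.0% and 40.3%) and 19 higher and 19 lower against B16F10 (40.9% and 35.6%). For the difference of responses it gave 28 higher and 2 lower against B16F10 (19.1% and 18.05%) and 21 higher and 3 lower against GL261(scid) (13.9% and 4.97%). This rule changes the threshold on p and drops the minimum fold change together. With a fold change over 1.5 and p under 0.001, LLC gave 0 higher and 1 lower (3.35% and 2.30%), B16F10 25 higher (10.3%), untreated GL261(B6) against LLC 7 higher and 16 lower (22.2% and 22.4%), treated GL261(B6) against LLC 34 higher and 1 lower (26.3% and 23.0%), and the difference of responses from GL261(scid) 5 higher (3.35%). By total reads, treated GL261(B6) against B16F10 gave 5 lower. By median-of-ratios normalization, 1 gene had a higher response in GL261(B6) than in GL261(scid).

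Leaving out each pool in turn gave 29 to 30 genes higher in GL261(B6), 11 to 15 in B16F10, 24 to 26 in GL261(scid) with CPA/6d and 25 to 28 with CPA/9d, with 0 lower in each and 0 in either direction in LLC and between the scid schedules. It gave 5 to 7 higher and 7 to 8 lower for untreated GL261(B6) against LLC, 3 higher and 18 to 19 lower against B16F10, 24 to 25 higher and 0 lower for treated GL261(B6) against LLC, and 12 to 13 higher and 9 to 10 lower against B16F10. The responses differed for 35 to 36 genes against LLC, 15 to 19 against B16F10 and 0 to 2 against GL261(scid), all higher, with the 2 seen when the smaller untreated GL261(B6) library was left out and 1 when the larger treated GL261(B6) library was. Among all other calls, those not kept under every setting were those of Galc and Lamp2 in GL261(B6), Arsa in B16F10, Sgsh (both schedules) and Hexa (CPA/9d) in GL261(scid), Glb1, Hexa, Arsa and Npc2 in untreated GL261(B6) against B16F10, Man2b1, Ctso, Neu1, Galc, Sgsh and Fuca1 in treated GL261(B6) against B16F10, and Ctsd, Ctsl and Idua in the difference of responses from B16F10. With 2 pools per group, changes near the thresholds are the least certain.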
